A study of Mus musculus with 6 samples.

Results

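The aryl hydrocarbon receptor circuit was followed here through 7 genes (Ahr, Arnt, Ahrr, Tiparp, Cyp1a1, Cyp1a2 and Cyp1b1). All probe sets that the array annotation assigns to 1 of these symbols were taken, which gave 16 of the 45037 probe sets that are not array controls. Arnt had 5 of them, Tiparp and Cyp1b1 3 each, Ahr 2, and Ahrr, Cyp1a1 and Cyp1a2 1 each. The circuit was set against active Nrf2 in mouse skin to ask whether the receptor, its feedback repressors or its enzyme targets changed with it.

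RNA came from the back skin of 6 female mice, littermates killed on postnatal day 2.5, and each mouse gave 1 Affymetrix array. In 3 mice (K5cre-caNrf2, tg/tg) the transgene for a constitutively active Nrf2 was switched on by a Cre recombinase driven by keratin 5, thus in keratinocytes. The other 3 (K5cre-wt, tg/wt) carried the Cre without the active transgene and are called control. All were of mixed FVB/N and C57BL/6 background. Sample titles assigned the groups, because the labels write the transgenic genotype as tg/g and list CaNrf2 as treatment for controls as well. The titles of all 6 samples also hold the word strong, which is not explained. Whole skin also holds dermis, vessels, fat, muscle and immune cells in which keratin 5 is not active, so a change restricted to keratinocytes is diluted by their RNA. In such bulk samples fewer cells of a type and less RNA per cell cannot be told apart.

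The aryl hydrocarbon receptor (Ahr) is a ligand-activated transcription factor that waits in the cytosol in a chaperone complex. Once bound by a planar aromatic compound or a tryptophan derivative it enters the nucleus, pairs with Arnt and binds DNA elements with the core GCGTG. Its best known targets are the cytochrome P450 enzymes of the Cyp1 family, and its feedback repressors Ahrr and Tiparp are targets too. In skin it senses pollutants, ultraviolet photoproducts and microbial metabolites. Nrf2 binds antioxidant response elements with the core TGACNNNGC. Both factors are known to act on Nqo1 and on each other's genes, which is why the 2 pathways are often discussed as a pair.

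Promoter sequences were available for 6 of the 7 genes in the RefSeq table of mouse build GRCm38.p6, from 250 bases before to 50 bases after each transcription start. The core GCGTG was searched on both strands and was present in 5 of the 6, those of Arnt, Ahrr, Tiparp, Cyp1a1 and Cyp1b1, against 32.4% of all 32851 promoter windows in the table. The longer form TNGCGTG, which contains that core, was found only in the window of Ahrr, against 5.1% of all windows. The antioxidant element TGACNNNGC was found only in the window of Arnt, against 12.4% of all windows. The looser TGANNNNGC, which contains it, was in 3 of the 6 windows, against 41.3% of all. These are matches of letters in a short window, not measured binding sites, and sequence farther from the start was not searched. The windows of Cyp1b1 and Cyp1a1 are shown because these genes had the lowest estimates of the circuit, and that of Ahrr because it held the most copies of the core. Capitals mark GCGTG, written CACGC where it lies on the other strand. The Cyp1b1 window is chr17:79715012-79715311 on the minus strand, that of Cyp1a1 chr9:57697363-57697662 on the plus strand and that of Ahrr chr13:74292282-74292581 on the minus strand.
Cyp1b1: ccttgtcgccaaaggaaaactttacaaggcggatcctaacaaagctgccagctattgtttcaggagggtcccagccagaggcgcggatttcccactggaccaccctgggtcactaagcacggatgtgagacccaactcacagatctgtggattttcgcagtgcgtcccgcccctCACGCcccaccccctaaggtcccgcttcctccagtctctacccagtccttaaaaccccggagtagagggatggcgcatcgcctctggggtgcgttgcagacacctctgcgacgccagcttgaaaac
Cyp1a1: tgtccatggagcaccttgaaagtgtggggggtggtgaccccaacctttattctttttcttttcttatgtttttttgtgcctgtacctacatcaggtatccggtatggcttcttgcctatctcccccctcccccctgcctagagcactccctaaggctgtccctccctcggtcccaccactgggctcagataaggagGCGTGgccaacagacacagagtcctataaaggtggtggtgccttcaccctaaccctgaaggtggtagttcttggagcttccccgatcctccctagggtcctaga
Ahrr: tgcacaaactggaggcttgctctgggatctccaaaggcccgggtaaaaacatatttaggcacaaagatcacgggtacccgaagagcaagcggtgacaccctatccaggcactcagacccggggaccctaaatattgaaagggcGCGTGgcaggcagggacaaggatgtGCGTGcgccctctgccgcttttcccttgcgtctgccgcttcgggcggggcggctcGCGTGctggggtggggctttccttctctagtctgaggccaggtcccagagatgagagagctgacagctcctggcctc
Cyp1b1 held 1 copy of the core, which started 76 bases before the transcription start on the opposite strand, and Cyp1a1 held 1 copy 54 bases before it. Ahrr held 3 copies, 107, 82 and 27 bases before its start, the last of them within the longer form.

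In caNrf2 skin none of the 16 probe sets passed as higher in limma. A single probe set of Cyp1b1 was lower in caNrf2 skin and 15 did not pass. A probe set was called at an adjusted p under 0.05 in limma with Benjamini-Hochberg adjustment over all 45037 probe sets. By that rule 1 of the 16 was called in either direction (6.25%), against 1.68% of all probe sets. Of the 16, 0 were higher, against 1.04%, and 1 was lower, against 0.633%. At an unadjusted p under 0.05 in the same fit, 3 were lower and 0 higher, while 17.4% of all probe sets passed that limit in either direction. Of the 16 estimates 12 lay below 0, against 51.3% of all probe sets. Several of the 16 read the same gene and are not independent, and with 1 probe set per gene 2 of the 7 members lay above 0. The median over the 16 was -0.08 on the log2 scale, and that over all probe sets -0.00396.

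Intensities are the authors' RMA values on a linear scale. Array background was gauged with 20 probe sets of Y-linked genes, which have no template in female mice. Their group means ran from 6.46 to 61.6 with a median of 11.8, and in 14 of the 20 both means were under 20. Whether the brightest of the 20 also read related genes on other chromosomes was not checked. The top of this range may therefore overstate background. Of the 16 probe sets of the circuit, 11 had both group means above that range and 5 lay within it. Those 5 were the only probe sets of Ahrr and Cyp1a2, 1 of the 3 of Cyp1b1 and 2 of the 5 of Arnt. Arrays of 1 group correlated at Pearson r from 0.9973 to 0.998 in log2 intensity, and arrays of different groups at 0.9949 to 0.9962. The labels give no processing batch.

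**Figure D1:**
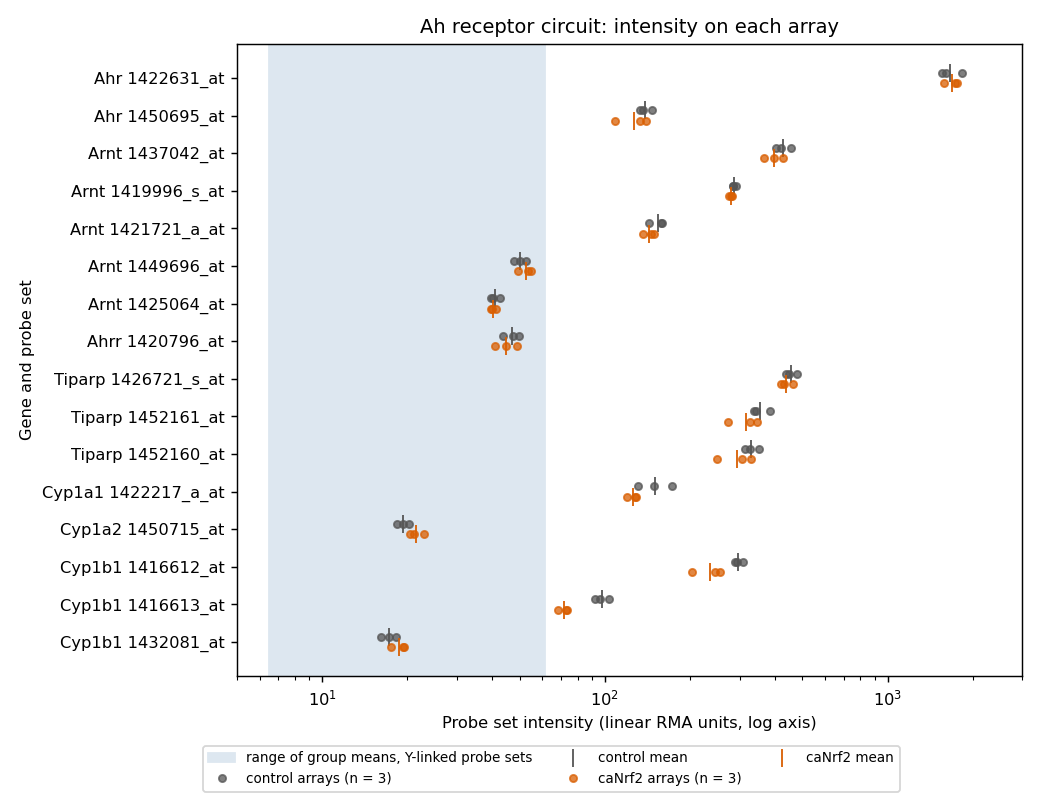
Intensity of each of the 16 probe sets on each array (points, 3 control and 3 caNrf2; linear RMA units on a log axis) with group means as vertical ticks; the shaded band is the range of group means of Y-linked probe sets, 6.46 to 61.6. Ahr 1422631_at averages 1668 in control and 1690 in caNrf2 skin, and Cyp1b1 1416613_at has all 3 caNrf2 arrays (68.0 to 73.5) below all 3 control arrays (92.4 to 104).

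The receptor itself was well measured and did not pass. Ahr probe set 1422631_at read 1558, 1615 and 1832 in control replicates 1 to 3 and 1731, 1583 and 1756 in caNrf2 replicates 1 to 3. The groups overlapped, with the highest value in a control and the 2 lowest split between the groups. The log2 fold change was 0.02 ± 0.08 (SE, n = 3 per group; limma, adjusted p = 0.919), and its 95% interval covered folds from 0.895 to 1.15. The dimmer probe set 1450695_at, designed on the same transcript accession, read 139 ± 7.05 in control and 127 ± 16.4 in caNrf2 skin (mean ± SD, n = 3) and gave -0.14 ± 0.10 (adjusted p = 0.494). There caNrf2 replicate 2, at 108, lay below the other 5 arrays.

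Arnt, the partner that Ahr needs to bind DNA and that Hif1a shares, did not pass either. Its brightest probe set, 1437042_at, read 418, 404 and 456 in control and 398, 426 and 367 in caNrf2 skin. The ranges overlapped, and the log2 fold change was -0.10 ± 0.08 (limma, adjusted p = 0.526). Probe set 1419996_s_at read 291, 283 and 284 in control and 282, 280 and 275 in caNrf2 skin. Its groups did not overlap, but the gap was small, with a log2 fold change of -0.04 ± 0.06 (adjusted p = 0.797). The third bright probe set, 1421721_a_at, gave -0.10 ± 0.07 (adjusted p = 0.507). The other 2, 1449696_at and 1425064_at, lay within the background range, at means from 40.1 to 52.6, and gave 0.07 ± 0.07 and -0.02 ± 0.06 (adjusted p = 0.648 and 0.873).

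Both feedback repressors gave estimates below 0 that did not pass. Ahrr, which competes with Ahr for Arnt, read 47.3, 49.5 and 43.6 in control and 48.9, 44.7 and 40.9 in caNrf2 skin. These values lay within the background range and interleaved, with a log2 fold change of -0.06 ± 0.08 (limma, adjusted p = 0.732). Tiparp codes for a mono-ADP-ribosyltransferase that marks Ahr and shortens its activity. Its brightest probe set, 1426721_s_at, read 449, 437 and 479 in control and 429, 420 and 463 in caNrf2 skin, a log2 fold change of -0.06 ± 0.07 (adjusted p = 0.708). Probe set 1452161_at read 338, 341 and 382 in control and 327, 273 and 345 in caNrf2 skin and gave -0.17 ± 0.10 (adjusted p = 0.378). Probe set 1452160_at also gave -0.17 ± 0.10, with adjusted p = 0.401. In each of the 3 Tiparp probe sets control replicate 3 was the highest array and caNrf2 replicate 2 the lowest. For the 11 probe sets of Ahr, Arnt, Ahrr and Tiparp the 95% intervals of the fold reached down to 0.757 and up to at most 1.17.

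Among the enzymes, Cyp1a1 had lower values in every caNrf2 array without passing. Cyp1a1 oxidises polycyclic aromatic compounds and is the usual readout of an active Ah receptor. It read 172, 150 and 131 in control and 127, 129 and 119 in caNrf2 skin. The groups did not overlap, but control replicate 3 lay only just above the caNrf2 arrays, and the controls were spread over 20.7 (SD) against 5.09 in caNrf2 skin. The log2 fold change was -0.26 ± 0.10 (limma, adjusted p = 0.213). Its unadjusted 95% interval covered folds from 0.718 to 0.97, so a rise of this probe set lay outside it. The estimate was -0.16 without control replicate 1 and -0.36 without control replicate 3. Among the 16 probe sets the groups did not overlap in 5, of which 4 were lower in caNrf2 skin, against 23% of all probe sets in either direction.

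Cyp1a2, the close relative of Cyp1a1 best known from liver, was at background. It read 18.4, 20.3 and 19.3 in control and 21.1, 20.4 and 23.0 in caNrf2 skin, with a log2 fold change of 0.15 ± 0.07 (limma, adjusted p = 0.319). All 3 caNrf2 arrays lay above the controls, by 0.0409 intensity units at the closest pair. Both means lay inside the range of Y-linked probe sets.

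Cyp1b1 was the one member of the circuit with a called probe set, and it was lower in caNrf2 skin. Cyp1b1 metabolises aromatic compounds, oestrogens and retinoids and is the Cyp1 enzyme typical of tissues outside the liver. Probe set 1416613_at read 95.9, 104 and 92.4 in control and 72.9, 68.0 and 73.5 in caNrf2 skin. All caNrf2 arrays lay below all controls. It fell by 0.44 on the log2 scale, to a fold of 0.735 (SE of the log2 value 0.0709; 95% interval of the fold 0.658 to 0.82; limma, adjusted p = 0.0137). The brighter probe set 1416612_at, designed on the same accession, read 308, 293 and 288 in control and 256, 203 and 245 in caNrf2 skin. It had no overlap and the same direction, at -0.34 ± 0.09, but did not pass (adjusted p = 0.104). It passed with an intensity trend in the variance model, alone or with robust variances, at adjusted p = 0.0473 and 0.0399. The third probe set, 1432081_at, lay at background in both groups (17.2 ± 1.05 and 18.7 ± 1.06; mean ± SD, n = 3) and gave 0.13 ± 0.07 (adjusted p = 0.408). Leaving out caNrf2 replicate 2 or control replicate 1 ended the call of 1416613_at, at adjusted p = 0.0583 and 0.0517. Adding the replicate number to the model as a block ended it too. Where 1 probe set per gene was fitted, the brighter 1416612_at stood for Cyp1b1 and no member was called (adjusted p = 0.0659).

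**Figure D2:**
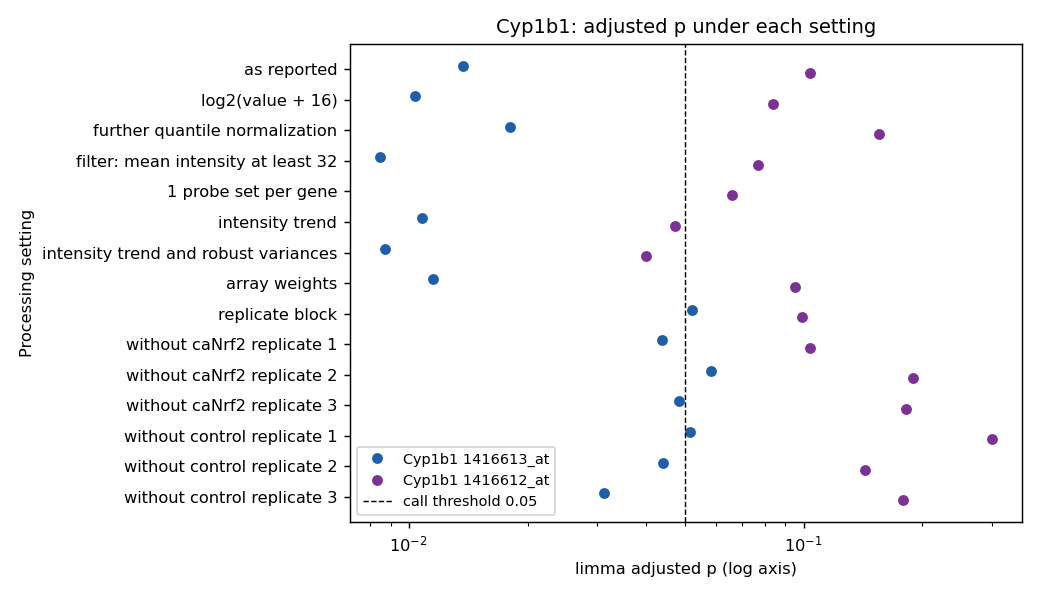
Adjusted p of 2 Cyp1b1 probe sets (points, log axis) as reported and under each of 14 alternative settings (1416613_at has no value with 1 probe set per gene), with the threshold of 0.05 as a dashed line. Probe set 1416613_at stays between 0.00848 and 0.0583 and 1416612_at between 0.0399 and 0.3.

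The lowest and highest arrays were not the same throughout the circuit. Replicate 2 of caNrf2 was the lowest of the 6 arrays in 6 of the 16 probe sets, caNrf2 replicate 3 in 5 and control replicate 1 in 3, with 1 each for caNrf2 replicate 1 and control replicate 2. Control replicate 3 was the highest in 6, control replicate 1 in 4, control replicate 2 in 3, caNrf2 replicate 3 in 2 and caNrf2 replicate 1 in 1. Probe sets of 1 gene share their transcript, so these counts hold fewer independent values than 16.

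Signs of cell makeup and RNA quality stood beside the Cyp1b1 values as follows. Of 10 measured fibroblast markers (Pdgfra, Dcn, Lum, Col1a1 and others) 0 were called in limma, their median was -0.0596 on the log2 scale, and their summed intensity ran from 78000 to 80400 in control and from 75100 to 77300 in caNrf2 skin. Of 10 markers of pericytes and smooth muscle 0 were called, with sums from 10100 to 10200 and from 9920 to 10100. Of 7 melanocyte markers 0 were called, but all 7 estimates were below 0, their median was -0.196, and their sums ran from 11900 to 12600 in control and from 10200 to 11200 in caNrf2 skin. Under 5 alternatives some melanocyte markers were called lower, namely 2 markers with 1 probe set per gene, 2 with an intensity trend, 3 with robust variances too, 1 with array weights and 1 without control replicate 3. At an unadjusted p under 0.05, 0 of the fibroblast and 0 of the pericyte and smooth muscle markers passed, and 6 of the 7 melanocyte markers were lower. All markers of these 3 lists lay above the background range. The keratinocyte markers, which check the tissue, summed to between 74000 and 74400 in control and between 74300 and 75100 in caNrf2 skin, and the basal keratin Krt15 was the 1 of 8 that was called, lower at -0.30 (adjusted p = 0.0482). Krt15 no longer passed when any 1 of the 6 arrays was dropped or with the replicate number as a block (adjusted p up to 0.165). The sums weigh the brightest markers most and say little about the dimmer ones. Among keratinocyte markers, Krt10 and Krt1 had control means of 19702.5 and 17933.8, against 1289.54 for Col17a1. Among fibroblast markers, Col3a1 and Col1a2 had control means of 20646.6 and 20622.2, against 1026.54 for Thy1. Whether such bright probe sets still followed RNA amount was not tested.

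Other cell types were read in the same way. Of 6 adipocyte markers 1 was called lower, Lep, the fat hormone leptin, which read 188, 185 and 176 in control and 132, 119 and 118 in caNrf2 skin, a log2 fold change of -0.58 ± 0.07 (limma, adjusted p = 0.00231). Lep kept its call under all 14 alternatives, while the sums of the adipocyte list overlapped (27900 to 28300 and 27200 to 28500). Of 10 macrophage and dendritic cell markers 1 was called lower, the adhesion protein Epcam, at -0.32 (adjusted p = 0.0493). Epcam no longer passed when any 1 array was dropped or with the replicate number as a block (adjusted p up to 0.178). A dimmer Epcam probe set gave 0.09 (adjusted p = 0.582). At an unadjusted p under 0.05, 2 markers of this list were higher, Cd207 at 0.36 and Fcgr1 at 0.27, and 1 lower, Epcam. The control mean of Cd207, 54.9, lay within the background range. With a dim filter or with 1 probe set per gene, 1 marker of this list was called higher. The sums of that list did not overlap, at 6540 to 6910 in control and 6020 to 6360 in caNrf2 skin, with Epcam at means of 3132 and 2507 and 7 of the 10 estimates above 0. Of 10 blood endothelial markers 0 were called and 0 passed unadjusted, but their sums were higher in every caNrf2 array (2610 to 2740 in control, 2800 to 2830 in caNrf2 skin). Markers of mast cells, lymphocytes, skeletal muscle and Schwann cells gave 0 calls, and at an unadjusted p under 0.05 the lymphocyte list had 2 lower, the muscle list 1 lower and the other two 0. Their sums overlapped between the groups, and of the 7 lymphocyte markers only 2 lay above the background range. The Actb ratio of 3' over 5' control probe sets was 0.493 ± 0.0119 in control and 0.525 ± 0.011 in caNrf2 skin in log2 units (mean ± SD, n = 3), and an exact permutation test gave a two-sided p = 0.1, which is the lowest value attainable with 3 arrays a group. The part of cell makeup and of RNA quality in the Cyp1b1 result was not tested.

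**Figure D3:**
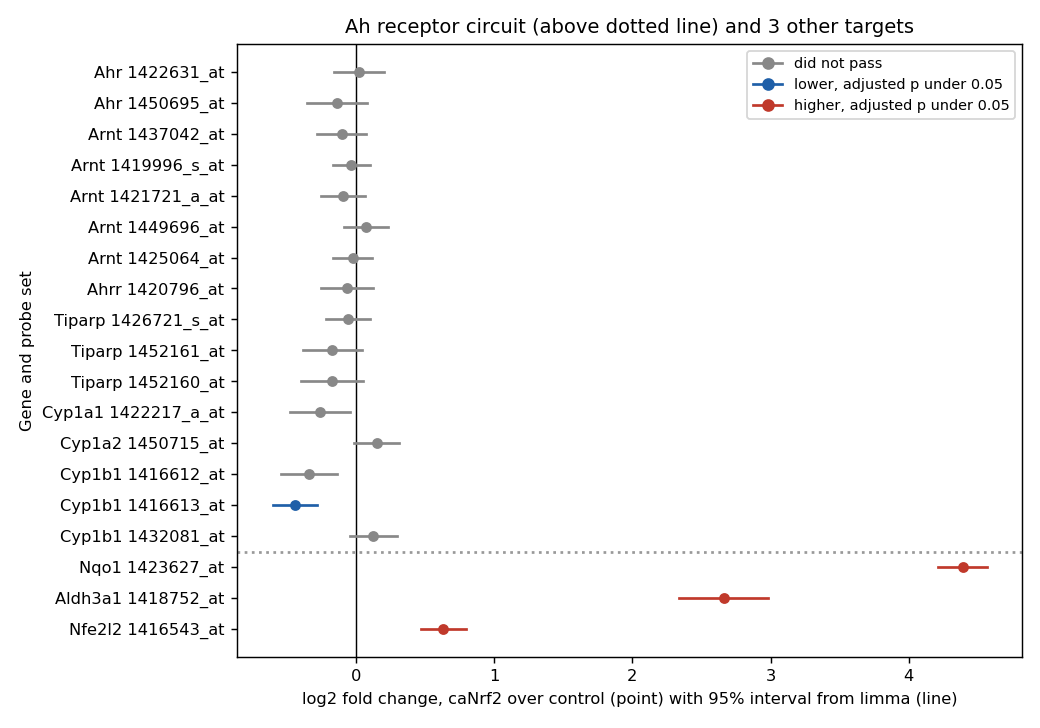
Log2 fold change of caNrf2 over control (points) with its 95% interval from limma (lines) for the 16 probe sets of the circuit, above the dotted line, and for Nqo1, Aldh3a1 and Nfe2l2 below it. Cyp1b1 1416613_at, at -0.44, is the only called member, while Nqo1 lies at 4.39 and Aldh3a1 at 2.66.

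Other genes that the Ah receptor is known to induce changed in part, with Nqo1 and Aldh3a1 far higher in caNrf2 skin. In lists 1 probe set stood for each gene, and 2.29% of the 18193 genes were called, 1.51% as higher and 0.786% as lower. Of 19 measured other targets 4 rose, 1 fell and 14 did not pass, with a median of -0.00894, against -0.00408 over all genes. At an unadjusted p under 0.05, 6 were higher and 4 lower. Nqo1 is counted here and again among the reference targets of Nrf2. The quinone reductase Nqo1 read 72.6, 66.2 and 64.3 in control and 1315, 1432 and 1512 in caNrf2 skin, a log2 fold change of 4.39 ± 0.08. The aldehyde dehydrogenase Aldh3a1, a classic Ah receptor gene, read 114, 118 and 77.9 in control and 621, 599 and 709 in caNrf2 skin, 2.66 ± 0.14 on the log2 scale. Nqo1 and Aldh3a1 rose by folds of 21.0 and 6.32. Cyp1a1 did not pass (limma, adjusted p = 0.213), with an unadjusted 95% interval of the fold from 0.718 to 0.97. Which factor raised Nqo1 and Aldh3a1 was not tested.

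Nfe2l2, which codes for Nrf2 and is itself described as an Ah receptor target, rose by 0.63 ± 0.07 (limma, adjusted p = 0.00176). Whether its probe set also reads the transgene was not determined, and its second probe set, at background, gave 0.16 (adjusted p = 0.315). Ptgs2, the inducible cyclooxygenase, rose from 42.2, 31.6 and 39.4 to 85.9, 80.1 and 88.3, or 1.18 ± 0.10 (adjusted p = 0.000262). Its control values lay within the background range, and a dimmer probe set, at 18.3 and 27.4, did not pass (adjusted p = 0.11). Scin, an actin-severing protein, fell from 147, 160 and 144 to 115, 109 and 113, a log2 fold change of -0.42 ± 0.07 (adjusted p = 0.0157). Scin did not pass once caNrf2 replicate 2, caNrf2 replicate 3 or control replicate 1 was dropped (adjusted p up to 0.0674). The replicate number as a block ended its call too. The P450 enzyme Cyp2s1 (-0.23; adjusted p = 0.191) and the growth factor Ereg (0.35; adjusted p = 0.0894) did not pass.

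**Figure D4:**
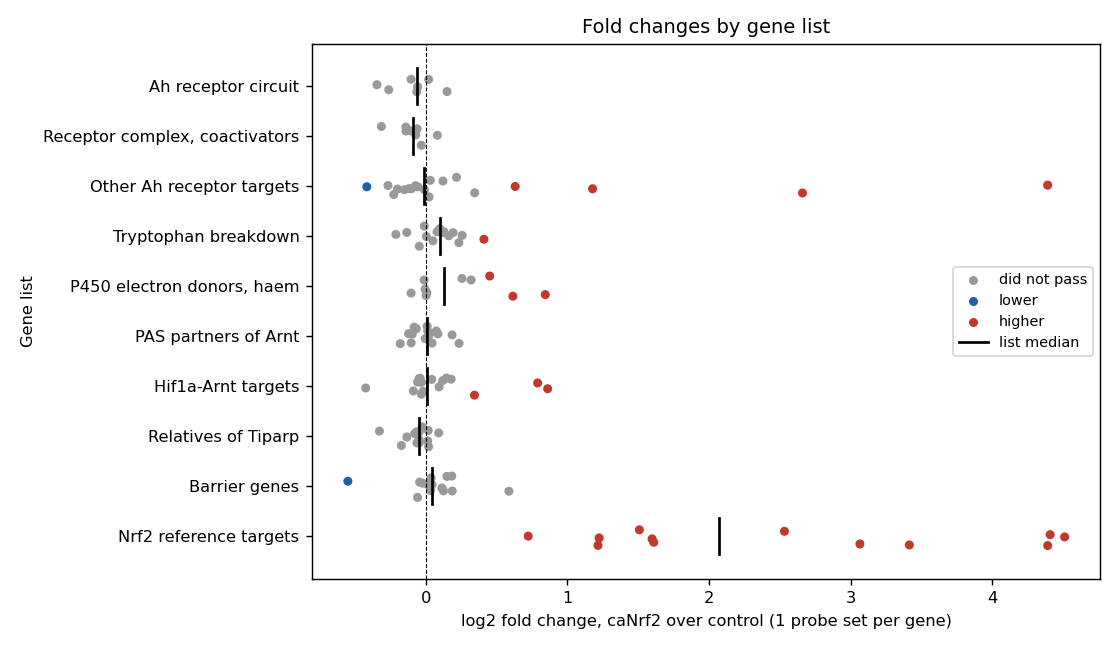
Log2 fold change of caNrf2 over control for each measured gene (points, 1 probe set per gene) in the Ah receptor circuit and 9 other lists, coloured by call, with list medians as black bars. All 12 Nrf2 reference targets are higher with a median of 2.07, and the median of the circuit is -0.0629.

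The cytosolic complex and the coactivators of the receptor gave no call in limma. Of 8 measured genes 0 passed, 1 was lower at an unadjusted p under 0.05, with a median of -0.0864 and 7 of 8 estimates below 0. The chaperone Hsp90aa1, which holds unliganded Ahr, read 5224 in control and 5103 in caNrf2 skin (means; adjusted p = 0.878). The coactivator Ncoa2 read 984 and 937 (adjusted p = 0.592). The smallest adjusted p in this list was 0.0896, that of the corepressor Nrip1 at -0.31, a gene outside the naming rule and chosen after its values were seen.

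Genes that make or break down Ah receptor ligands from tryptophan were mostly dim, with 4 of 15 above the background range in both groups. The 1 that rose was Il4i1, an amino acid oxidase that opens a path from tryptophan to receptor ligands, from 45.2 ± 3.23 to 60.1 ± 5.32 (mean ± SD, n = 3), a log2 fold change of 0.41 ± 0.09 (limma, adjusted p = 0.0488). Both means lay within the background range, and Il4i1 no longer passed after a further quantile normalization or when any array except caNrf2 replicate 1 was dropped (adjusted p up to 0.178). The dioxygenases Ido1, Ido2 and Tdo2, which start tryptophan breakdown, were at background, with means from 14.5 to 26.6.

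Genes that serve P450 enzymes were higher in part. There were 3 rises and 0 falls among the 10 measured, the other 7 did not pass, and the median was 0.132. Cyb5a, cytochrome b5, which passes electrons to P450 enzymes, rose from 3313, 3606 and 3189 to 4335, 4698 and 4786, or 0.45 ± 0.07 (limma, adjusted p = 0.0157). Pgrmc1, a haem-binding membrane protein that interacts with P450 enzymes, rose from 2426, 2316 and 2497 to 4318, 3974 and 4728, or 0.84 ± 0.08 (adjusted p = 0.000359). Alad, an enzyme of haem synthesis, rose by 0.62 ± 0.13 (adjusted p = 0.0477), with its second probe set at 0.48 (adjusted p = 0.0733). Leaving out caNrf2 replicate 2 or 3 or control replicate 1 ended the calls of both Cyb5a and Alad. Leaving out control replicate 3 did so too, with adjusted p up to 0.0786 for Cyb5a and 0.149 for Alad. For Alad alone, leaving out control replicate 2, array weights or the replicate number as a block also ended the call. Alas1, which starts haem synthesis, lay just outside the threshold at 0.32 ± 0.07 (adjusted p = 0.0534). Fech did not pass on its brightest probe set (0.26, adjusted p = 0.111), but 1 of its 4 probe sets was called higher. The count of rises in this list ran from 1 with some single arrays left out to 5 with an intensity trend.

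Arnt also pairs with Hif1a and other PAS-domain factors, so these were read beside it. Of 15 measured partners and relatives 0 were called in limma, with 2 higher and 1 lower at an unadjusted p under 0.05 and a smallest adjusted p of 0.18. Hif1a, the hypoxia factor, read 2164 and 2297 (means; adjusted p = 0.541), and its relative Epas1 1775 and 1831 (adjusted p = 0.745). Of 16 targets of the Hif1a-Arnt dimer 3 rose, 0 fell and 13 did not pass, with a median of 0.0115. Slc2a1, the glucose transporter, rose from 599, 695 and 592 to 959, 1166 and 1139, or 0.79 ± 0.10 (limma, adjusted p = 0.00227), and all 3 of its probe sets passed. Adm, the vasoactive peptide adrenomedullin, rose by 0.86 ± 0.07 (adjusted p = 0.000155), and both of its probe sets passed. Bnip3, a mitophagy receptor, rose by 0.34 ± 0.07 (adjusted p = 0.043). It no longer passed when any 1 of the 6 arrays was dropped or with the replicate number as a block (adjusted p up to 0.127). Ldha and Pgk1, glycolytic enzymes and standard hypoxia targets, gave -0.03 and 0.04 (adjusted p = 0.833 and 0.762).

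Relatives of Tiparp and the barrier genes gave few calls. Of 14 measured mono-ADP-ribosyltransferases and hydrolases 0 passed in limma and 2 were lower at an unadjusted p under 0.05, with a median of -0.0462 and a smallest adjusted p of 0.0753. The brightest were Zc3hav1, an antiviral zinc finger protein (683 and 649, adjusted p = 0.669), and Macrod1, a hydrolase that removes ADP-ribose (443 and 447, adjusted p = 0.934). Of 14 barrier genes that Ah receptor ligands are known to raise in keratinocytes 0 rose, 1 fell and 13 did not pass. At an unadjusted p under 0.05, 3 were higher and 1 lower, and 10 of the 14 estimates lay above 0. With an intensity trend, alone or with robust variances, 1 of the 14 was called higher. The one that fell was the envelope precursor Ivl, from 2361, 1961 and 2324 to 1532, 1523 and 1471, a log2 fold change of -0.55 ± 0.08 (limma, adjusted p = 0.00899), with both probe sets lower. Ivl narrowly failed when caNrf2 replicate 3 or control replicate 3 was dropped (adjusted p up to 0.0513). The median of this list was 0.0415. In contrast, all 12 reference targets of Nrf2 were higher, with a median of 2.07. They were Nqo1, Gclc, Gclm, Srxn1, Txnrd1, Hmox1, Gpx2, Gsta4, Gstm1, Slc7a11, Osgin1 and Mafg, with log2 fold changes from 0.72 for Mafg to 4.51 for Gpx2. This list, like the members and the other lists, was chosen with earlier results of these data known, so the counts are descriptions.

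Genes whose profile over the 6 arrays lay closest to a member were sought among those with 1 probe set per gene, for the 5 members above background. For Cyp1b1 they were Marveld2, Phax and 2900026A02Rik (Pearson r = 0.9976, 0.9957 and 0.995), and 575 genes had an r over 0.9. For Cyp1a1 they were Icam1, Adamts19 and Phf8 (r = 0.9961, 0.9946 and 0.9902), with 441 genes over 0.9. For Tiparp they were Acbd5, Lrcol1 and Dek (r = 0.9982, 0.9936 and 0.9914), with 199 such genes. For Arnt they were Dennd4a, Flicr and Brip1os (r = 0.9928, 0.9888 and 0.9853), with 105 such genes, and for Ahr Htr1f, Card14 and Anln (r = 0.9862, 0.9831 and 0.9721), with 61. With 6 arrays and 18193 genes many such matches arise, and the arrays share their normalization, so these names are a description only. None of these 15 genes was called.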

How the data were processed

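Skin RNA from 6 mice (3 caNrf2, 3 control) was hybridised to Affymetrix mouse arrays. The deposited intensity values were summarised with RMA by the authors, per the submitters' processing notes, and are on a linear scale. The RMA version is not given in the sources used here. RMA quantile-normalizes arrays, so a shift of most genes in 1 direction could not be seen. The number of arrays limits the precision.

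A linear model with group as its only term was fitted to log2 intensities in limma 3.58.1 under R 4.3.3 (lmFit and eBayes) over 45037 probe sets, without the 64 array controls. P-values are two-sided, Benjamini-Hochberg adjusted over all of these, and 95% intervals are unadjusted. No dim probe sets were removed. The script was tested on simulated data. Genes took 1 symbol from the platform annotation (34945 probe sets with 1, 932 with several, 9160 with none), updated by Entrez identifier through RefSeq GRCm38.p6 (34741 matched). In lists the probe set with the highest mean stood for a gene, and 123 of 139 entries in 9 pathway lists and 87 of 93 in 11 marker lists were measured. The others are not analysed here. Named are all member probe sets, the called genes of each pathway list or, without a call, its 2 brightest genes, and the 3 genes most like a member. Other genes, those of the marker lists included, were chosen after their values were seen. The members and lists were chosen with earlier results of these data known. Alternatives covered scale, normalization, a dim filter, variance models, array weights, 1 probe set per gene, the replicate number as a block and leaving out each array.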

Additional observations from a re-analysis of the deposited data

How the results depend on the processing

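Over 14 alternatives, 0 of the 16 probe sets were called higher in limma in any. The count called lower was 1 as reported, 2 with an intensity trend, 2 with an intensity trend and robust variances, and 0 with 1 probe set per gene, where only the brighter Cyp1b1 probe set was fitted. It was 0 to 1 when single arrays were left out. With the replicate number as a block it was 0, with Cyp1b1 1416613_at at adjusted p = 0.0521, and Scin, Alad, Bnip3, Krt15 and Epcam of the lists lost their calls. Whether the replicate numbers pair the samples could not be decided. Deviations of same-numbered arrays correlated at 0.0413, 0.157 and 0.0826, and those of differently numbered arrays at -0.139 to 0.0695. For caNrf2 replicate 1 the correlation was higher with control replicate 3 (0.0695) than with control replicate 1. The Cyp1b1 log2 estimates stayed between -0.48 and -0.37 for 1416613_at and between -0.41 and -0.24 for 1416612_at, and that of Cyp1a1 between -0.36 and -0.16. Only values near 0 changed sign, with no call on either side. With single arrays left out Ahr 1422631_at ranged from -0.0267 to 0.09, Ahrr from -0.1281 to 0.0021 and Arnt 1425064_at from -0.0459 to 0.0071. Arnt 1419996_s_at gave 0.0073 with a further quantile normalization. Over all probe sets 470 were higher and 285 lower. The lower count was 428 with log2(value + 16), 577 with an intensity trend, 610 with robust variances too and 177 with the replicate block. With single arrays left out the higher count ran from 280 to 354 and the lower from 79 to 270. Of the gene counts of the lists under the alternatives, 513 stayed within 1.5 times the reported count and 47 did not. The causes were not tested. Signal over background limits Ahrr, Cyp1a2, 1 probe set of Cyp1b1 and 2 of Arnt.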
